A study of Mus musculus with 16 samples.

Results

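The genes described here are 9 heat shock chaperones and their factor Hsf1, taken by name from the gene table. All 10 were found among 53850 genes, and all 10 passed the filter on low values, as did 19594 genes in all. They were Hspa8, Hspa1a, Hspa1b, Hsp90aa1, Hsp90ab1, Hsph1, Dnajb1, Hspe1, Hspd1 and Hsf1. As background, Hspd1 and Hspe1 encode the chaperonin of mitochondria and its lid, so these 2 members are not cytosolic. The 16 libraries were made from FACS-sorted microglia of the cortex of young C57BL/6J mice, with no other allele named. The 4 groups of 4 were males on PLX3397 chow, males on control chow, females on PLX3397 chow and females on control chow, each for 1 week. PLX3397 inhibits the CSF1 receptor, on which microglia depend for survival, and the series asks why depletion by the drug differed with sex. The cells on PLX3397 are therefore those that remained after depletion, and neither the sort gate, ages in days nor whether each sample was 1 animal is given in the sources used here. The p-values thus measure the spread between these samples, which may be technical. In sorted bulk samples, fewer cells of a type and less RNA per cell cannot be told apart.

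Heat shock proteins are chaperones that bind unfolded proteins and help them to fold. In the cytosol, HSP70 proteins bind short exposed stretches of a client, J-domain proteins such as that of Dnajb1 bring the client and set off ATP hydrolysis, and nucleotide exchange factors such as that of Hsph1 release it. HSP90 then matures many kinases and receptors. When unfolded protein accumulates, the transcription factor HSF1 is released from chaperones, forms trimers and binds heat shock elements, which are alternating repeats of GAA and TTC in the promoters of these genes. Microglia, the macrophages of the brain, carry high levels of the constitutive HSP70 transcript Hspa8, and the inducible pair Hspa1a and Hspa1b is known to respond to stress and to handling of cells outside the body.

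Library sums ran from 32641505 to 44162201 normalised counts, and the spacing of low values put the reads at about 22000000 to 77300000 a library. P2ry12, a purinergic receptor gene of resting microglia, read 48658 to 70892 in males on PLX3397 and 236323 to 262919 in male controls. It read 74599 to 99746 in females on PLX3397 and 234689 to 278596 in female controls. None of the 10 microglia markers was at 0 in a whole group. Their sum was 1007330 to 1434100 in males on PLX3397 and 2209790 to 2385410 in male controls, and 1607260 to 1828470 in females on PLX3397 and 2105830 to 2561100 in female controls. Male control replicate 4 stood apart with an Xist of 516, against a median of 24.5 in its group, and male PLX3397 replicate 3 with an S100a8 of 14419, against a median of 2745. Markers of other cells differed with the chow. The summed 10 neutrophil markers read 49039 to 110810 in males on PLX3397 and 36274 to 37399 in male controls, and 24249 to 35488 in females on PLX3397 and 29160 to 34170 in female controls. Of these, 8 of 10 were called higher in males and 5 of 10 in females, and S100a8, S100a9, Ly6g, Retnlg and Ltf were at 0 in all female controls. Such a sum is set mostly by its highest markers, while the mean log2 level of the 10 weighs each alike. That mean was 9.57 to 11.8 in treated males, with male controls at 4.87 to 6.87. Treated females stood at 5.83 to 6.82, with female controls at 2.27 to 2.56. In females the chows thus overlapped in the sum and were apart in the mean. The 9 border-associated macrophage markers summed to 726 to 1235 in males on PLX3397 and 2213 to 3238 in male controls. They summed to 1023 to 1496 in females on PLX3397 and 1686 to 3877 in female controls, with Lyve1 and Cd209f at 0 in all males on PLX3397. The 8 monocyte markers summed to 1181 to 7730 in males on PLX3397 and 589 to 1086 in male controls, and 583 to 989 in females on PLX3397 and 592 to 764 in female controls, with 0 of 6 tested called in either sex. At an unadjusted p under 0.05 stood 4 in males and 3 in females, where 23.8% and 17.1% of all genes did. Among these, Ccr2 fell in both sexes (-0.88 in males and -1.10 in females). Chil3 and Cd177 rose in both sexes and Ly6c2 in males. Of 8 astrocyte markers tested, only S100b was called in males and only Gfap in females, both higher. Of 5 oligodendrocyte markers tested, Mbp was called higher in both sexes and Cnp lower in males, with 3 fitted changes above 0 in each sex. Of 5 endothelial and mural markers tested, Pecam1 was called lower in both sexes and Pdgfrb in males. Fitted changes of this list were above 0 for 3 of 5 in males and 1 of 5 in females. Neuron (7 tested) and lymphocyte (4 tested) markers had no call. The part of these cells in the results below was not tested.

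Promoters of the members are shown because HSF1 binds elements of the kind marked in them and because those of Hspa1a and Hspa1b are almost the same. RefSeq windows on build GRCm38.p6 of 250 bases before to 50 bases after a start site were at hand for 6 of the 10 members, in 9 windows. This is not the build named in the submitters' processing notes, and the windows serve for their letters only. The 2-unit elements GAANNTTC and TTCNNGAA read the same on both strands, may overlap each other, and are in capitals.
Hspa1a, chr17:34972107-34972406, minus strand: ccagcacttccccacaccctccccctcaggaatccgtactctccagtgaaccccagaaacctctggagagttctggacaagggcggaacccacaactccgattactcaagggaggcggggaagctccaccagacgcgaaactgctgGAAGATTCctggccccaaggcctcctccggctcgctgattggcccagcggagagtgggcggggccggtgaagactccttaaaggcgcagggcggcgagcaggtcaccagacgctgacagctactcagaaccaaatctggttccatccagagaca
Hspe1, chr1:55087898-55088197, plus strand: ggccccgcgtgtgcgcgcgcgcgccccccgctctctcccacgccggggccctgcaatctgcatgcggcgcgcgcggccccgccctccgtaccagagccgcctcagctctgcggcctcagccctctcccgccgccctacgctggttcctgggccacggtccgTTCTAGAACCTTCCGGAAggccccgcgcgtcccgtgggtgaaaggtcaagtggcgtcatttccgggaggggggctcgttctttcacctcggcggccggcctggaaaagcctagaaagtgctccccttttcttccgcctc
Hsph1, chr5:149636287-149636586, minus strand: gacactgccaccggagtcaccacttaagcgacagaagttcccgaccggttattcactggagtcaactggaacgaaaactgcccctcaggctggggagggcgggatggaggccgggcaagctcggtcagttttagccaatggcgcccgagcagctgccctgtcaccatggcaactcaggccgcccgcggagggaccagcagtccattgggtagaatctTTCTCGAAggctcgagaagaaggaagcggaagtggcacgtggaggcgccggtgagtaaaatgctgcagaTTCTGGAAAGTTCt

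The Hspa1b window, chr17:34959189-34959488 on the minus strand, differed from that of Hspa1a at 4 of 300 bases. Counted from 1 at the 5′ end, with the Hspa1a base first, these were C44T, T47C, T249G and C276T, all outside the single GAANNTTC element that lies 104 bases before the start in both. Hspe1 and Hspd1 lie head to head, and 1 of the 2 Hspd1 windows overlapped that of Hspe1 by 285 bases, so that the same run of 4 alternating units stands in both. Hsph1 held TTCTCGAA before its start and a run of 3 alternating units after it. By window, 6 of the 9 held a 2-unit element, against 15.1% of 32851 windows of all genes. These 6 are not separate sequences. The Hspa1a and Hspa1b windows are almost alike, Hspd1 and Hspe1 share theirs, and the Hsph1 windows overlap and hold the same elements. By member, 5 of the 6 had one in some window and 3 of the 6 had a run of 3 alternating units (a 2-unit element followed by NN and GAA or TTC in turn), which 0.603% of all windows held. That share is by window and not by member, and the runs of Hspd1 and Hspe1 are the same stretch. Neither Dnajb1 window held one. These are matches of letters only.

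Copies of these genes limit how reads could be assigned. Of the 50-base words in the Hspa1b transcript, 62.3% also occur in Hspa1a, and 66.3% of those of Hspa1a occur in other genes, in GENCODE M21 transcripts. The share was 47.5% for Hsp90aa1, 42.1% for Hspd1, 39.4% for Hspa8 and 22.8% for Hspe1. It was 3.44% for Hsp90ab1, 0.412% for Dnajb1 and 0 for Hsph1 and Hsf1. How the submitters' counting treated reads that match several genes is not given, so values of Hspa1a and Hspa1b are uncertain one by one, and their sum is given as well. A sum would not bring back reads left out of the counting. Values of Hsp90aa1, Hspd1, Hspa8 and Hspe1 are uncertain for the same reason.

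The inducible HSP70 pair had the largest changes of the set. Both genes encode the same stress-inducible cytosolic HSP70. Hspa1b rose on PLX3397 in males and in females, and the summed pair rose about 8.63-fold in males and 11.7-fold in females, with no overlap between the chows in either sex. Tests were by limma across all genes, two-sided, on log2(normalised count + 1), and a gene was called at a Benjamini-Hochberg adjusted p under 0.05.

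Summed, the pair read 1291, 208, 604 and 3747 normalised counts in males on PLX3397 and 86.4, 106, 131 and 87.7 in male controls. In females it read 334, 531, 663 and 5696 on PLX3397 and 114, 24.8, 126 and 95.4 on control chow. The lowest library on PLX3397 lay above the highest control in each sex, and replicate 4 was far the highest of its group in both. The change was 3.11 ± 0.851 (log2, SE) in males (limma adjusted p = 0.0244) and 3.54 ± 0.851 in females (limma adjusted p = 0.0197). Without replicate 4 of both PLX3397 groups it was 2.42 in males (limma adjusted p = 0.0141) and 2.66 in females (0.0132). The male call ended without any of 5 single libraries: PLX3397 replicates 1 (limma adjusted p = 0.0615) and 4 (0.0736) and control replicates 1 (0.0598), 2 (0.0525) and 4 (0.0551). It also ended without male control replicate 4 and male PLX3397 replicate 3 together (0.0776). The female call ended without female control replicate 2 (0.0690). The sum was formed after the values were seen.

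Taken one by one, Hspa1b read 400, 152, 269 and 1639 in males on PLX3397 and 86.4, 61.7, 70.4 and 13.6 in male controls. In females it read 135, 416, 449 and 3278 on PLX3397 and 61.8, 24.8, 104 and 56.4 on control chow. The chows did not overlap in either sex. The change was 3.05 ± 0.869 in males (limma adjusted p = 0.0302) and 3.27 ± 0.869 in females (limma adjusted p = 0.0354). Hspa1a read 891, 55.9, 335 and 2108 in males on PLX3397 and 0, 44.7, 61.0 and 74.0 in male controls. In females it read 199, 114, 214 and 2418 on PLX3397 and 51.9, 0, 22.4 and 39.0 on control chow. Its chows were apart in females, while in males 1 library on PLX3397 lay within the range of controls. The fitted change of Hspa1a, which depends on the 2 libraries listed at 0, was 4.34 ± 1.52 in males (limma adjusted p = 0.0804) and 4.47 ± 1.52 in females (limma adjusted p = 0.115), and neither passed. Without the control library listed at 0 it was 2.87 in males (male control replicate 1, limma adjusted p = 0.242) and 3.17 in females (female control replicate 2, 0.292). Without PLX3397 replicate 4 it was 3.58 in males and 3.51 in females. The range over single libraries left out was 2.87 to 5.32 in males and 3.17 to 5.08 in females. With a pseudocount of 5 it was 3.72 in males (limma adjusted p = 0.0465), and without male PLX3397 replicate 2 it was 5.32 (0.0464). The male call of Hspa1b ended without PLX3397 replicate 1 (limma adjusted p = 0.0571) or 4 (0.0903) or control replicate 2 (0.0534) or 4 (0.0968). Its female call ended without PLX3397 replicate 2 (0.0657), 3 (0.0606) or 4 (0.0916) or control replicate 1 (0.0730), 2 (0.103) or 4 (0.0736).

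**Figure D1:**
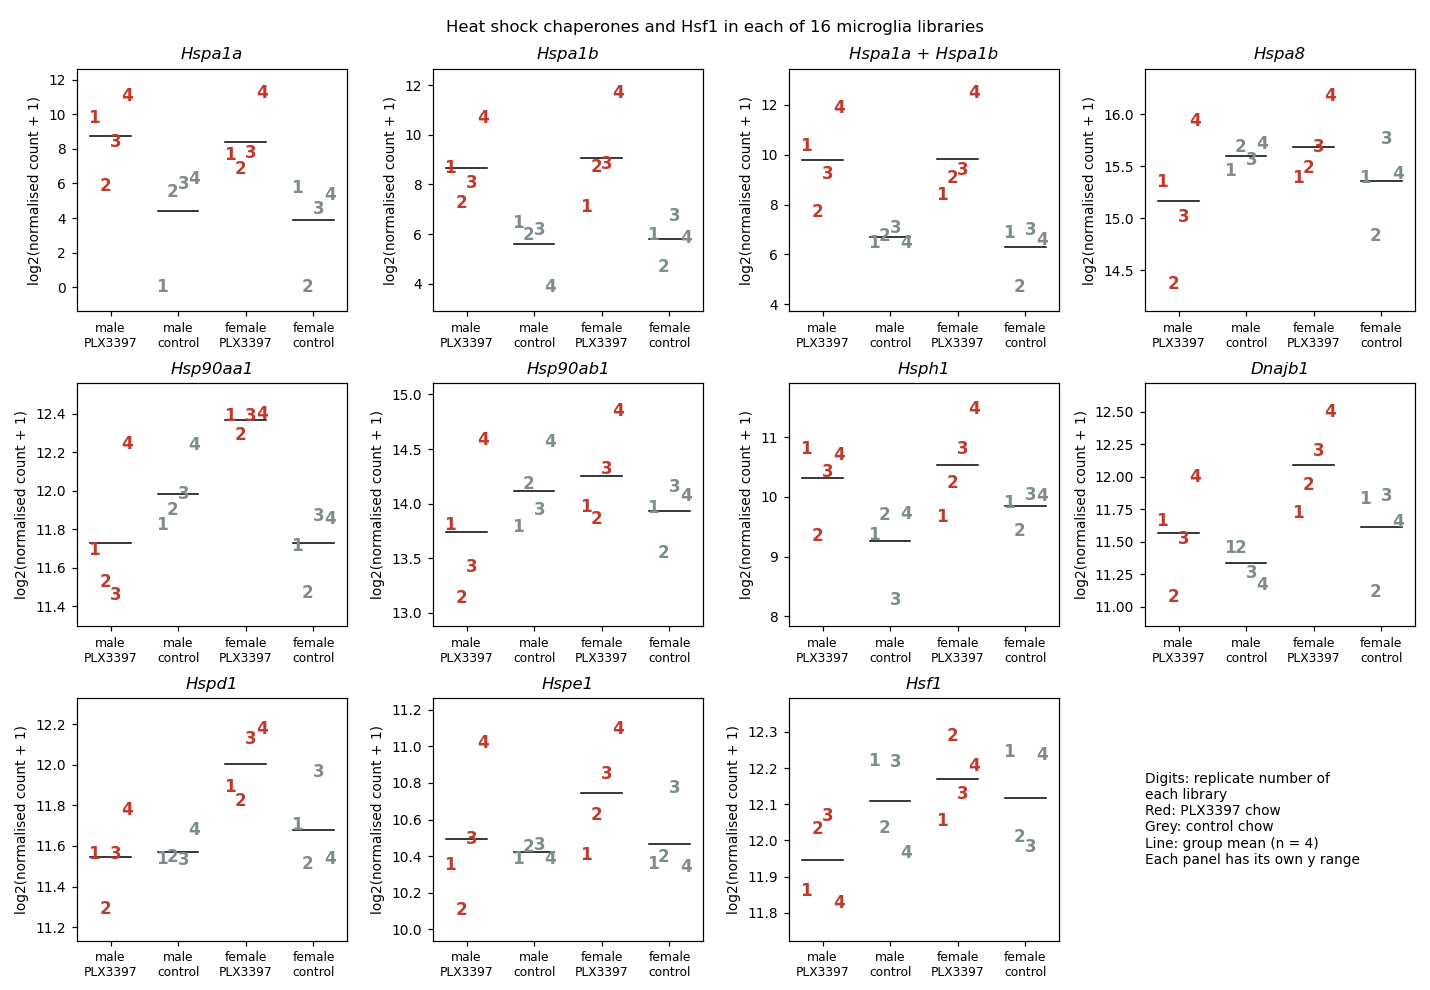
Each panel plots 1 gene, or the summed HSP70 pair, as log2(normalised count + 1) in the 16 libraries, with PLX3397 chow in red, control chow in grey, digits for replicate numbers and a line at each group mean. The summed pair lies at 208 to 3747 normalised counts in males on PLX3397 and 86.4 to 131 in male controls, and replicate 4 of each PLX3397 group is the highest for most chaperones.

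Of the 10 members, 1 was called higher in males (Hspa1b) and none lower, where 4.16% of all genes tested were called higher and 11.7% in either direction. Higher genes were 35.6% of all called in males as deposited, 59.5% with equal library totals and 46.7% after quantile normalisation. In females 2 were called higher (Hspa1b and Hsp90aa1) and none lower, where 2.67% of all genes were higher and 5.34% either way. The median change of the members was 0.02 in males, as over all genes (0.02), and 0.40 in females, against -0.00322 over all genes. At an unadjusted p under 0.05 stood 3 of 10 members in males, where 23.8% of all genes did, and 5 of 10 in females, where 17.1% did. The fitted change was above 0 for 5 of 10 members in males and for 10 of 10 in females. Over all 19594 genes tested it was above 0 for 10150 in males and 9721 in females. With group means taken off, pairs of the 9 chaperones correlated at 0.363 to 0.921, so their signs are not separate results. Groups did not overlap for 1 member in males, where 17.6% of all genes were apart, and for 3 in females (Hspa1a, Hspa1b and Hsp90aa1), where 10.4% were. The other 9 members in males and 8 in females did not pass.

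Hsp90aa1, the inducible HSP90, rose on PLX3397 in females and did not pass in males. It read 5363, 5011, 5362 and 5387 in females on PLX3397 and 3359, 2828, 3743 and 3697 in female controls. All 4 treated libraries were above all 4 controls and within a narrow band. The change was 0.64 ± 0.151, or 1.56-fold (limma adjusted p = 0.0176), and it lost its call without female control replicate 2 (0.0605). In males it read 3309, 2946, 2814 and 4846 on PLX3397 and 3625, 3819, 4040 and 4819 on control chow. Here 3 treated libraries lay below every control and replicate 4 above every control. The male change was -0.25 ± 0.151 (limma adjusted p = 0.335), and without male PLX3397 replicate 4 it was -0.43 and passed as lower (limma adjusted p = 0.0309). The difference between the responses, females minus males, was 0.90 ± 0.214 (limma adjusted p = 0.208) and did not pass over all genes. Without male PLX3397 replicate 4 it was 1.07 and passed (limma adjusted p = 0.0366).

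Hspa8, the constitutive HSP70 that also serves protein uptake into lysosomes and the uncoating of clathrin vesicles, and Hsp90ab1, the constitutive HSP90, did not pass in either sex. Hspa8 read 41761, 21194, 32957 and 62488 in males on PLX3397 and 44759, 52711, 48279 and 53729 in male controls. In females it read 42750, 45901, 52796 and 73839 on PLX3397 and 42969, 29216, 55737 and 44096 on control chow. The treated males spread on both sides of the controls, and the female groups overlapped. The changes were -0.44 ± 0.261 in males (95% interval -0.99 to 0.12) and 0.33 ± 0.261 in females (-0.22 to 0.88). Hsp90ab1 averaged 14703 ± 6922 in males on PLX3397 and 18151 ± 4389 in male controls, and 20197 ± 6615 in females on PLX3397 and 15830 ± 2715 in female controls (SD, n = 4 each). These groups overlapped as well. Its changes were -0.38 ± 0.273 in males and 0.32 ± 0.273 in females (limma adjusted p = 0.436 and 0.635). Without replicate 4 of both PLX3397 groups, Hspa8 (-0.69), Hsp90ab1 (-0.66) and Hsp90aa1 (-0.43) were called lower in males (limma adjusted p = 0.0470, 0.0431 and 0.0381), which with Hspa1b made 4 called members.

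Hsph1, which encodes the HSP110 exchange factor of HSP70, read 1782, 649, 1359 and 1667 in males on PLX3397 and 660, 829, 308 and 834 in male controls. Its values in females were 806, 1203, 1787 and 2838 on PLX3397 and 958, 688, 1045 and 1036 on control chow. In males 3 of 4 treated libraries lay above every control and replicate 2 lay among them. The changes were 1.05 ± 0.396 in males (limma adjusted p = 0.104) and 0.70 ± 0.396 in females (limma adjusted p = 0.411), and neither passed. The male change was called without male PLX3397 replicate 2 (1.38, limma adjusted p = 0.0346) and with equal library totals (1.21, limma adjusted p = 0.0445). Dnajb1, the J-domain partner that HSF1 induces along with HSP70, read 3245, 2154, 2944 and 4093 in males on PLX3397 and 2799, 2809, 2459 and 2305 in male controls. Its values in females were 3373, 3915, 4694 and 5791 on PLX3397 and 3643, 2213, 3700 and 3226 on control chow. Its changes of 0.23 ± 0.206 in males and 0.47 ± 0.206 in females did not pass (limma adjusted p = 0.553 and 0.238). The groups overlapped in both sexes.

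The mitochondrial pair did not pass in either sex. Hspd1, the chaperonin, averaged 3010 ± 411 in males on PLX3397 and 3046 ± 156 in male controls, with a change of -0.03 (95% interval -0.29 to 0.24). In females it averaged 4128 ± 495 on PLX3397 and 3304 ± 499 on control chow, with a change of 0.32 ± 0.127 that did not pass (limma adjusted p = 0.180). Hspe1, its lid, read 1306, 1102, 1443 and 2076 in males on PLX3397 and 1338, 1399, 1408 and 1334 in male controls. Its values in females were 1355, 1578, 1842 and 2190 on PLX3397 and 1311, 1348, 1746 and 1295 on control chow. The groups overlapped in both sexes, and the change was 0.07 (95% interval -0.31 to 0.46) in males and 0.28 (-0.11 to 0.66) in females. Hsf1 itself read 3718, 4184, 4290 and 3634 in males on PLX3397 and 4765, 4196, 4763 and 3993 in male controls. In females it read 4247, 5004, 4473 and 4720 on PLX3397 and 4851, 4119, 4041 and 4827 on control chow. Its groups overlapped too. The changes were -0.16 ± 0.101 in males (95% interval -0.38 to 0.05) and 0.05 ± 0.101 in females (-0.16 to 0.26). HSF1 is controlled mainly as a protein, which was not measured here.

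**Figure D2:**
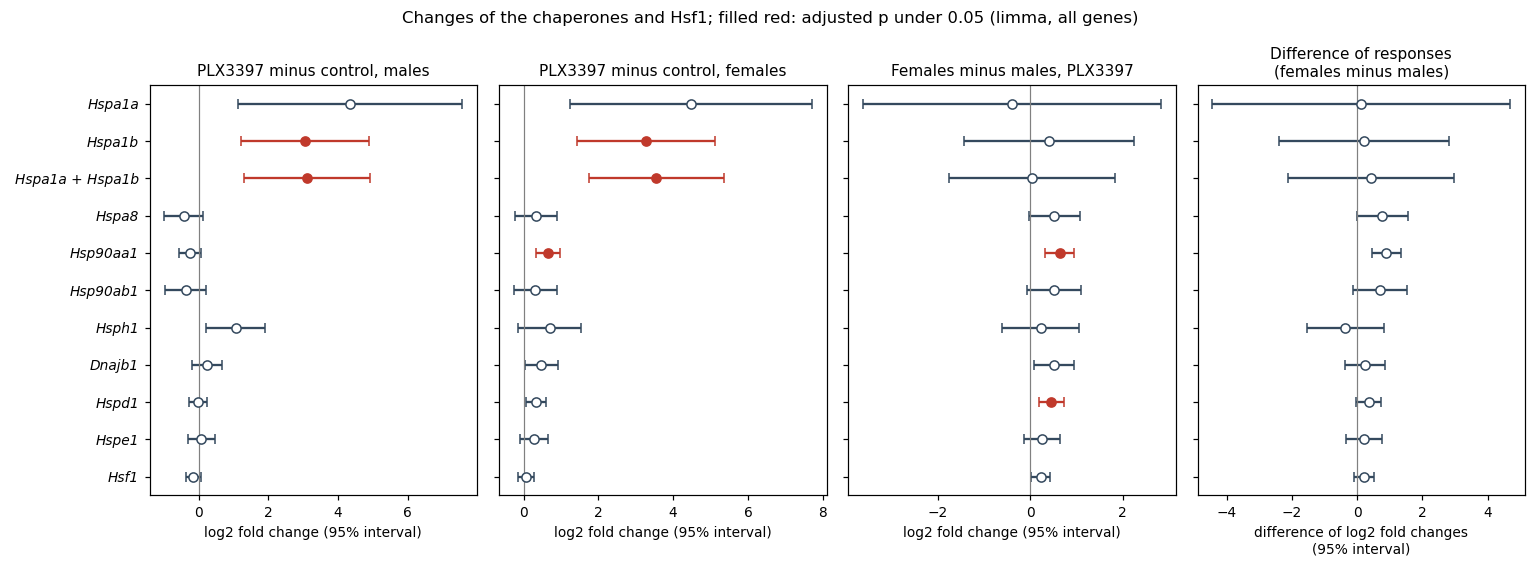
Each panel plots the log2 change of every member and of the summed HSP70 pair with its 95% interval for 1 comparison, and filled red points have an adjusted p under 0.05. Hspa1b and the summed pair lie between 3.05 and 3.54 in both sexes, Hsp90aa1 at 0.64 in females and -0.25 in males, and no member passes in the difference of responses.

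Between the sexes on PLX3397, 2 of 10 members were called higher in females, where 4.28% of all genes were higher and 5.43% changed either way. Hsp90aa1 was higher by 0.64 ± 0.151 (limma adjusted p = 0.0252), with all 4 females above all 4 males. Hspd1 was higher by 0.46 ± 0.127 (limma adjusted p = 0.0462), at 3790, 3623, 4479 and 4621 in females and 3014, 2502, 3015 and 3509 in males. The lowest female lay above the highest male. At an unadjusted p under 0.05 stood 4 of 10, where 22% of all genes did, and 2 of 10 had no overlap, where 12.1% did. Lower genes were 1.15% of all. The fitted difference was above 0 for 9 of 10 members, with a median of 0.43, against -0.02 over all genes. It was above 0 for 9483 of the 19594 genes tested. Scaling changed these calls. Higher genes were 78.8% of those called as deposited and 34.3% with equal library totals, which put the median of all genes at -0.218, and both members then lost their calls (limma adjusted p = 0.0739 for Hsp90aa1 and 0.165 for Hspd1). Without single libraries Hsp90aa1 also lost its call for male PLX3397 replicates 2 (limma adjusted p = 0.0888) and 3 (0.0796) and female PLX3397 replicates 3 (0.0606) and 4 (0.0521). Hspd1 lost it without male PLX3397 replicate 1 (0.0673), 2 (0.152) or 3 (0.0969), or without female PLX3397 replicate 1 (0.0561), 3 (0.118) or 4 (0.109). The HSP70 pair differed between females and males on PLX3397 by 0.03 (95% interval -1.77 to 1.84), an interval too wide to show that the sexes were alike. On control chow 0 of 10 members were called between the sexes, and 0 at an unadjusted p under 0.05, where 0.0663% and 5.19% of all genes were. None was without overlap, where 3.55% of all genes were. In the difference between responses 0 of 10 were called, with 1 (Hsp90aa1) at an unadjusted p under 0.05, where 0% and 10.3% of all genes were.

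In 6 libraries all 9 chaperones lay on the same side of their group means. Set against their group means on the log2 scale, all 9 chaperones were above in male PLX3397 replicate 4, female PLX3397 replicate 4 and female control replicate 3. All 9 were below in male PLX3397 replicate 2, female PLX3397 replicate 2 and female control replicate 2. The median deviation of the 9 was 0.527 and -0.602 in male PLX3397 replicates 4 and 2, and 0.49 in female PLX3397 replicate 4. It was -0.196 in female PLX3397 replicate 2, and 0.287 and -0.417 in female control replicates 3 and 2. Some single deviations were small, such as Hsp90aa1 at 0.029 in female PLX3397 replicate 4 and Hspe1 at -0.069 in female control replicate 2. Among male controls no library had all 9 on one side, and the median deviations ran from -0.043 to 0.111. Hsf1 deviated by -0.145 to 0.127 over the 16 libraries, and by -0.119 and 0.036 in replicate 4 of the males and females on PLX3397. Over all 19594 genes tested, 51.5% and 50.6% were above their group means in male PLX3397 replicates 4 and 2, and 49.6% to 52.6% over the 16 libraries. Some other lists and library sums moved with the chaperones in some of these libraries, and others did not. In males on PLX3397, replicate 2 was the lowest and replicate 4 the highest in summed endoplasmic reticulum chaperones (167103 and 273574), HSP90 cochaperones (42058 and 57718), subunits of TRiC and prefoldin (36873 and 49078) and microglia markers (1007330 and 1434100). Summed mitochondrial chaperones and proteases were highest there in replicate 1 (37722), with 35376 in replicate 4. In females on PLX3397, endoplasmic reticulum chaperones were highest in replicate 3 (318560) and lowest in replicate 2 (278286). HSP90 cochaperones, TRiC and prefoldin, and microglia markers were highest there in replicate 4 and lowest in replicate 1. Library sums of males on PLX3397 were lowest in replicate 2 (32641505) and highest in replicate 4 (39584145), and among female controls lowest in replicate 2 (38410670) and highest in replicate 3 (44162201). In females on PLX3397 the library sums of replicates 2 and 4 were close, at 41735899 and 41959485, between replicate 1 (41574208) and replicate 3 (42268064). The part of the library sums in these deviations was not tested. Immediate early genes, whose transcripts also rise when cells are handled, are given beside this. Their mean log2 level was 9.63 in male PLX3397 replicate 4, within a group range of 9.27 to 10.1. Replicate 2 of the treated males, lowest in chaperones, was the highest of its group at 10.1. In females on PLX3397, replicate 4 was the highest at 9.68, close to replicates 1 (9.67) and 2 (9.61) and above replicate 3 (9.09). Whether handling contributed was not tested.

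**Figure D3:**
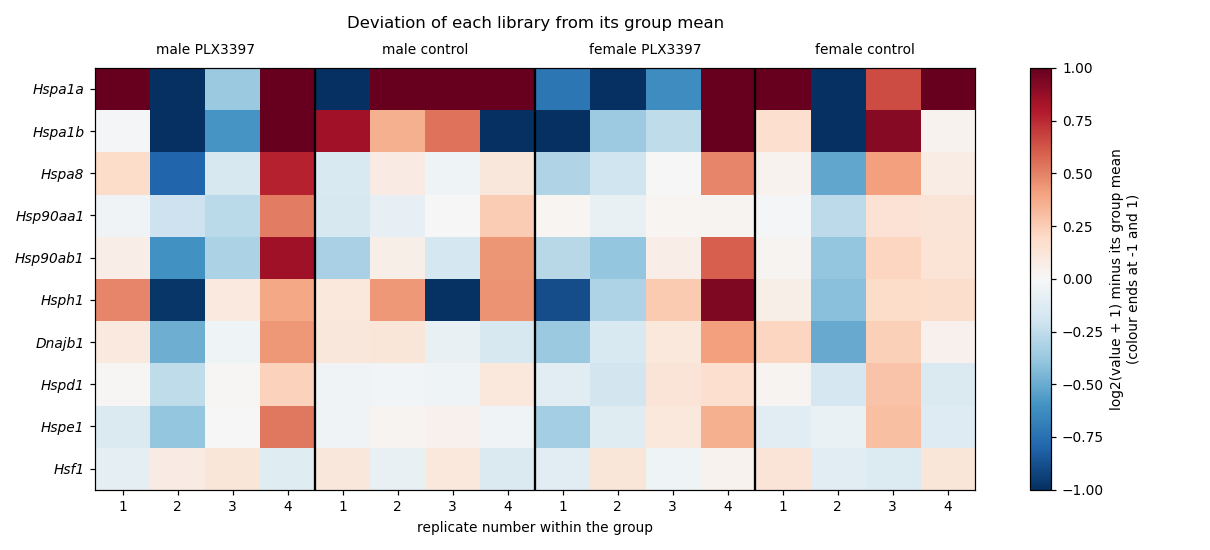
Colour shows log2(value + 1) minus the group mean for each member (down the page) in each library (across), red above and blue below, with colour ending at -1 and 1. All 9 chaperones lie above the group mean in replicate 4 of both PLX3397 groups and below it in replicate 2 of the males on PLX3397. In female PLX3397 replicate 4, Hsp90aa1 is nearly white at 0.029. Hsf1 stays between -0.145 and 0.127.

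Levels per kilobase of annotated exon put the members in order. The length was that of all annotated exons of a gene joined, 7266 bases for Hsph1 and 7099 for Hsf1, against 2967 for Hspa1a and 2803 for Hspa1b. A transcript in use can be shorter, so the order depends on this length. Hspa8 averaged 10829 normalised counts per kilobase over the 16 libraries and Hsp90ab1 5742. Hspd1 (1276), Dnajb1 (1041), Hsp90aa1 (1033) and Hspe1 (1021) followed, and the ranges over libraries of these 4 overlapped, as did that of Hspa8 (4928 to 17168) with that of Hsp90ab1 (2997 to 9829). The lowest library of Hsp90ab1 was above the highest of those 4. Hsf1 stood at 615. Hspa1b (161), Hsph1 (159) and Hspa1a (140) were lowest over all libraries, and their order differed by group. Hspa1b averaged 219 per kilobase in males on PLX3397 and 20.7 in male controls, and 382 in females on PLX3397 and 22.0 in female controls. Hspa1a averaged 286 in males on PLX3397 and 15.2 in male controls, and 248 in females on PLX3397 and 9.55 in female controls. Hsph1 averaged 188 in males on PLX3397 and 90.5 in male controls, and 228 in females on PLX3397 and 128 in female controls. By this length, the mean of Hsph1 was thus below those of both HSP70 genes on PLX3397 and above them on control chow. Even in female PLX3397 replicate 4, its highest library, Hspa1b at 1170 per kilobase stayed below the lowest library of Hspa8.

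The 3 genes most like a member over the 16 libraries were taken by Pearson's r of log2 levels. For Hspa1a they were Spata2l, Hist3h2a and Mrpl14 (r of 0.852, 0.841 and 0.839), and for Hspa1b Tent5a, Gga2 and Anxa7 (0.907, 0.892 and 0.887). For Hspa8 they were Tomm22, a receptor of mitochondrial import, Manf and Snx3 (0.918, 0.908 and 0.886). For Hsp90aa1 they were Litaf, Lxn and Mdh2 (0.879, 0.874 and 0.860), and for Hsp90ab1 Ap2m1, Bpnt1 and Cct7, a subunit of the cytosolic chaperonin (the last at 0.815). For Dnajb1 they were Ifngr2, Mfsd1 and Zfp36l1 (0.902, 0.868 and 0.866). For Hspe1 they were Lamtor5, the J-domain gene Dnaja1 and Ube2b (0.856, 0.840 and 0.834), and for Hspd1 Fcf1, Ldha and Mdh2 (0.912, 0.906 and 0.876). For Hsf1 they were Gm37747, Zfp953 and Trmt2a (0.849, 0.849 and 0.809). These values describe libraries that share groups and normalisation.

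Lists of other chaperone genes are read beside all genes tested, of which 4.16% were higher and 7.52% lower in males, and 2.67% higher and 2.67% lower in females. An unadjusted p under 0.05 was reached by 23.8% of all genes in males and 17.1% in females. Of 31 HSP70 partners, which include J-domain proteins and BAG exchange factors, 1 was higher and 2 lower in males (3.23% and 6.45%) and 3 were higher in females (9.68%). Dnajb14, a membrane-bound J-domain protein of the endoplasmic reticulum, rose by 0.90 ± 0.121 in males (limma adjusted p = 0.000101) and 0.68 ± 0.121 in females (0.00238). It read 3229 to 4009 in males on PLX3397 and 1721 to 2184 in male controls, and 3023 to 3585 in females on PLX3397 and 1794 to 2510 in female controls, and kept its calls under all 20 alternatives. Dnajb2 rose in females by 0.80 ± 0.167 (limma adjusted p = 0.00801), also under all 20. Dnajc2 in females (0.78) and Dnaja2 (-0.45) and Dnajb5 (-1.01) in males passed as well, and lost their calls under 8, 10 and 3 of 20 alternatives. Bag3, an HSF1 target and partner of HSP70, did not pass at -0.37 ± 0.324 in males and 0.35 ± 0.324 in females, nor did Dnaja1 at 0.06 ± 0.341 in males and 0.24 ± 0.341 in females. None of the 18 HSP90 cochaperones passed in either sex (medians -0.14 and 0.08), with 2 in males and 1 in females at an unadjusted p under 0.05. Stip1, which links HSP70 to HSP90, was at -0.15 ± 0.218 in males and 0.13 ± 0.218 in females. None of 15 subunits of the chaperonin TRiC and prefoldin passed either (medians -0.10 and 0.06), with 2 in males and 0 in females at an unadjusted p under 0.05.

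Of 10 small heat shock proteins, 6 passed the filter and 1 changed. Hspb3 fell in both sexes, to 441 to 651 in males on PLX3397, against 1061 to 1508 in male controls, and to 460 to 860 in females on PLX3397, against 1291 to 1926 in female controls. The changes were -1.28 ± 0.202 in males and -1.39 ± 0.202 in females (limma adjusted p = 0.000421 and 0.000450) and held under all 20 alternatives. Hspb1 (HSP27), a classic HSF1 target, was at 0.29 ± 1.00 in males and -0.47 ± 1.00 in females and did not pass. Among 10 further factors and regulators, 8 of them tested, Hsf4, Dedd2 and Ep300 were higher and Vcp lower in males (37.5% and 12.5%), and Hsf4 was the only one higher in females (12.5%). Hsf4, a second heat shock factor, read 13.8 to 23.6 in males on PLX3397 and 0 to 11.2 in male controls, and 2.10 to 21.5 in females on PLX3397 and 0 in all female controls. It passed the filter on low values mainly through the libraries on PLX3397, so that a difference was built into its entry, and its calls support nothing here. They ended under 13 of 19 alternatives in males and 4 of 19 in females. In males Ep300, a histone acetyltransferase, rose by 0.51 and Dedd2 by 0.76, and Vcp, the ATPase that extracts ubiquitinated proteins, fell by 0.38. Their calls ended under 2, 12 and 3 of 20 alternatives.

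Of 17 endoplasmic reticulum chaperones, 6 were lower in males and none in females, where 7.52% and 2.67% of all genes were lower, with medians of -0.35 and 0.10. At an unadjusted p under 0.05 stood 9 in males and 1 in females, where 23.8% and 17.1% of all genes did. Pdia6, a disulfide isomerase, fell by 0.64 ± 0.124 in males (limma adjusted p = 0.00235) under all 20 alternatives. The calls of Pdia3 (-0.46), Dnajb11 (-0.54), Dnajc3 (-0.39), P4hb (-0.37) and Canx (-0.42) ended under 7, 7, 12, 11 and 11 of them. Of these alternatives, 5, 5, 5, 6 and 6 were single libraries left out. Scaling was also among them. Quantile normalisation gave a limma adjusted p of 0.312 for P4hb and 0.231 for Canx, and equal library totals 0.151 for Dnajc3. On PLX3397, 7 of the 17 were higher in females than in males, among them Hspa5 (0.60 ± 0.146) and Canx (0.56 ± 0.131), where 4.28% of all genes were. None of the 17 passed in the difference between responses, with 9 at an unadjusted p under 0.05, where 10.3% of all genes were. All 7 calls between the sexes ended under several of 20 alternatives: 8 each for Hspa5 and Canx, 9 for Pdia6, 10 for Pdia3, 13 for Hsp90b1, and 14 each for Dnajb11 and Pdia4. Of 15 mitochondrial chaperones and proteases none passed in males and 1, Hscb (0.98 ± 0.251), in females, a call that ended under 7 of 20 alternatives, 5 of them single libraries left out. At an unadjusted p under 0.05 stood 3 in males and 6 in females, where 23.8% and 17.1% of all genes did. The mitochondrial HSP70 gene Hspa9 did not pass at 0.06 ± 0.114 in males and 0.33 ± 0.114 in females. Of 21 immediate early genes tested, Atf3, Nr4a1 and Ier3 were higher and Klf2 lower in males, and Atf3, Nfkbia, Klf6 and Ier3 were higher in females. Higher genes were thus 14.3% of the list in males and 19% in females, where 4.16% and 2.67% of all genes tested were higher. Lower genes were 4.76% of the list in males, where 7.52% of all genes tested were lower. Atf3, a stress-induced factor, rose by 1.66 ± 0.238 in males and 1.73 ± 0.238 in females under all 20 alternatives. The calls of Ier3 ended under 8 of 20 alternatives in males and 9 of 20 in females, 6 of them single libraries left out in each sex, and that of Nr4a1 in males under 1.

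**Figure D4:**
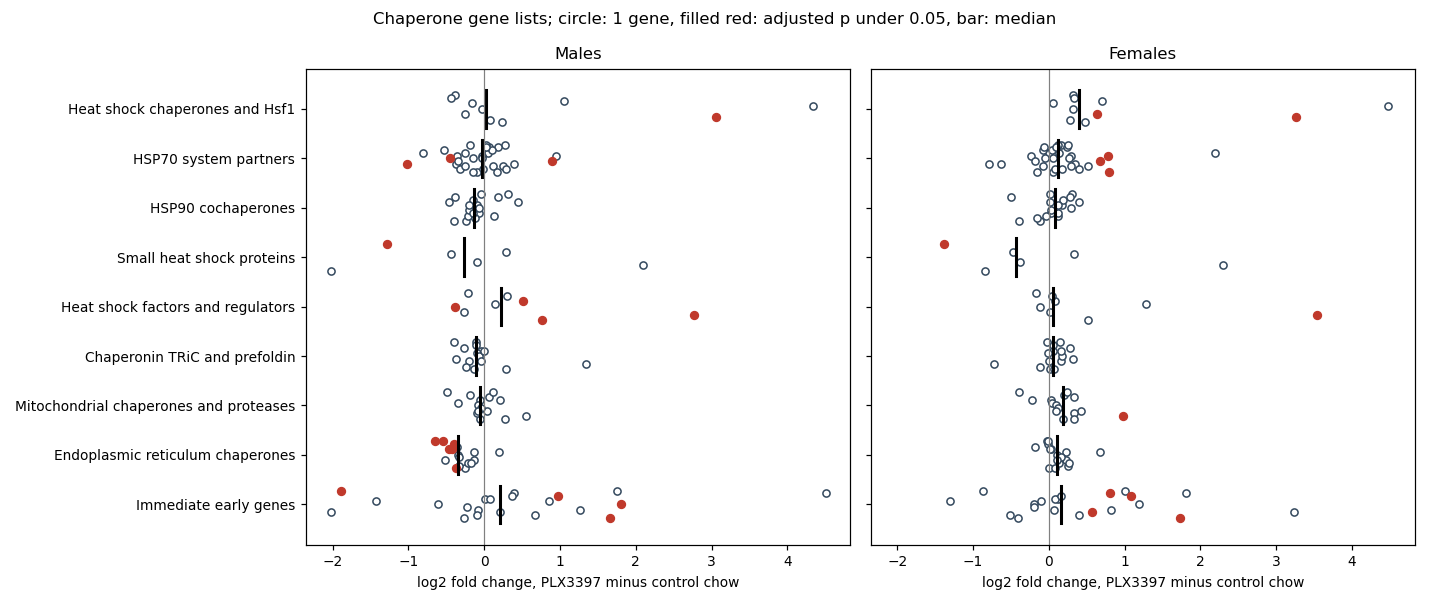
Each circle is the log2 change of 1 gene on PLX3397 against control chow, in males (left) and females (right), by gene list, with called genes filled red and a bar at the median. The medians of the heat shock set are 0.02 and 0.40 and those of the endoplasmic reticulum list -0.35 and 0.10, and the fitted value of Hsf4 in females is against a group listed at 0.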

How the data were processed

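RNA of sorted microglia was amplified with a SMARTer low-input kit from 500 pg of total RNA and made into Nextera XT libraries from 150 pg of cDNA, per the labels' protocols. The deposited table gives a signal per gene and library, named by the authors as normalised counts. Scaling differs between libraries and, by a little, between genes, as low values show. Tools in the submitters' processing notes include STAR 2.7.9a, featureCounts 2.0.1 and Salmon 1.5.2, and the build there is GRCm39, without roles. The normalisation formula and annotation release are not given in the sources used here. Whole reads were not recovered, so count models were not used and no counting intervals are given.

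Symbols came from a GRCm38-based Ensembl table, for 51029 of 53850 identifiers. A gene entered the tests if 4 or more libraries reached 10 (19594 did). Values were taken as log2(value + 1) and fitted with limma 3.58.1 in R 4.3.3, with an intensity trend, a mean for each group in a joint fit of the 16 libraries, two-sided p-values and Benjamini-Hochberg adjustment over all genes. The procedure was tested on simulated counts, drawn gene by gene with a common spread and with changes put into males on PLX3397 alone. That test does not cover genes as uneven within a group as Hspa1a and Hspa1b, nor genes that move together. Exon lengths, shared 50-base words and motifs were computed in Python 3.11.15 from GENCODE M21 and RefSeq, and figures drawn with matplotlib 3.10.9. Named were members, up to 4 called genes of each list with the smallest p in each PLX3397 comparison, all called genes where 5 or fewer passed, P2ry12, and the 3 genes most like each member (for Hsph1 not reported here). Bag3, Dnaja1, Stip1, Hspb1, Hspa9, the remaining 2 endoplasmic reticulum genes called in males, Xist, single markers and the genes named between the sexes were added after their values were seen. The members and lists were chosen with earlier results of these data known. Alternatives were other pseudocounts (0.5, 5) and filters, scaling to upper quartiles, equal library totals, quantile normalisation, array weights, only the compared groups in the fit, replicate number as a block, and libraries left out. The summed HSP70 pair and leaving out replicate 4 of both PLX3397 groups were added after seeing the data.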

Additional observations from a re-analysis of the deposited data

Results flagged for a closer look

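In 44 groups of 4 libraries (10 genes and the summed HSP70 pair), a library stood far from the other 3 of its group on the log2 scale in 4 cases, and chance gives about 1 in 20. Hspa1a was listed at 0 in male control replicate 1, below 44.7 to 74.0 in the others. Hsp90aa1 read 5011 in female PLX3397 replicate 2, below 5362 to 5387 in the others, a small gap in a narrow group. Hspe1 read 1746 in female control replicate 3, above 1295 to 1348. Hspd1 read 3280 in male control replicate 4, above 2954 to 2987. No member differed between the sexes in its response past the test.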

How the results depend on the processing

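Over 55 results of single members or the HSP70 pair and 1188 alternatives, 1131 kept their side of the threshold, 46 lost a call, 11 gained one and 0 reversed as called values. Most of the 55 were not called as reported and could not lose a call. Of 20 alternatives each, calls were lost under 6 for Hspa1b and 6 for the pair in males. In females they were lost under 10 for Hspa1b, 1 for the pair and 1 for Hsp90aa1. Between the sexes on PLX3397 they were lost under 9 for Hsp90aa1 and 13 for Hspd1. The count of called genes in males (2289) was 1517 without male control replicate 4 and male PLX3397 replicate 3. Between the sexes on PLX3397 (1064) it was 669 with no filter, 671 with upper-quartile scaling, 569 with equal library totals, 465 with quantile normalisation, 339 without those 2 libraries, and 44 in a fit to the groups compared alone, which has fewer samples. In the difference between responses (0) it was 1 with a pseudocount of 5, 2 without those 2 libraries and 13 without replicate 4 of both PLX3397 groups.

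Members called in males (1) were 2 with a pseudocount of 5 or equal library totals, 0 with no filter or without those 2 libraries, and 4 without both replicates 4. In females (2) they were 1 with no filter, quantile normalisation or the groups compared alone. Between the sexes on PLX3397 (2) they were 1 with no filter or without both replicates 4, and 0 with upper-quartile scaling, equal totals, quantile normalisation, the groups compared alone or without those 2 libraries. In the difference between responses (0) they were 1 without both replicates 4. Beyond what fewer samples or more genes tested bring, the cause was not tested. Leaving out 1 library at a time gave 1727 to 2307 genes and 0 to 3 members in males, 775 to 1121 and 0 to 2 in females, 0 to 6 and 0 to 1 in the difference, 324 to 1232 and 0 to 2 between the sexes on PLX3397, and 11 to 20 genes on control chow (13 with all libraries).

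No pairing by replicate number was seen over all genes: deviations of same-numbered libraries correlated at -0.0446 to 0.0206 between groups that differed in chow alone or sex alone. Whether same-numbered libraries shared a preparation was not tested. With the replicate block, 2 members were called in males (Hspa1a at limma adjusted p = 0.0447 and Hspa1b) and 1 in females (Hsp90aa1, with Hspa1b at 0.0515), and 2136 and 962 genes in all. Precision is limited by 4 libraries a group: SE ran from 0.101 for Hsf1 to 1.52 for Hspa1a.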
